A study of Homo sapiens with 8 samples.

Results

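Keratin genes and keratin-associated protein genes were followed in LNCaP, a human prostate tumor cell line, as the rows of the expression table whose gene symbol starts with KRT and a digit or with KRTAP. There were 36 such rows among 4072 named genes, and each was read by 1 of the array's 16377 transcript clusters, the sets of probes summarized as a transcript. They comprised 21 type II keratin genes and the type I keratin gene *KRT18* on chromosome 12, 11 genes of the KRTAP5 family on chromosome 11, the pseudogenes *KRT8P41* and *KRT19P2*, and the non-coding RNA *KRTAP5-AS1*. The 25 listed type I keratins outside the simple epithelial group, among them *KRT14*, were not analysed here, nor was *KRT19*.

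Total RNA of 8 clones was profiled, each on its own Human Gene 2.0 ST array from Affymetrix. Control clones were numbered 3, 4, 8 and 9. The *HIST1H1A* clones, numbered 2, 8, 9 and 10, over-expressed the gene of the linker histone H1.1. Per the study's methods, LNCaP cells were given the control vector or *HIST1H1A* by lentivirus, both were selected with blasticidin, and clones were picked by serial dilution. No other treatment is named, and the promoter driving *HIST1H1A* is not given in the sources used here. Each array is 1 clone, so differences between clones and differences in measurement cannot be told apart. *HIST1H1A* itself was not analysed here, so the over-expression could not be checked on these arrays.

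Keratins form the intermediate filaments of epithelial cells. A filament is built from pairs of a type I and a type II keratin. *KRT8* and *KRT18* form the pair of simple epithelia, including the luminal cells of the prostate gland, which LNCaP resembles, while *KRT5* marks the basal cells beneath them. Other type II keratins serve the epidermis, mucosa, inner root sheath and hair shaft, and the cysteine-rich KRTAP proteins crosslink hair keratins. The type II keratin genes lie side by side on the long arm of chromosome 12 at 12q13, with *KRT18* at the end of the row next to *KRT8*.

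The deposited values are log2 signals, so a difference of 1 is a 2-fold change. The median signal of an array lay between 3.25 and 3.30. The median of all values was 3.27 and is used below as a mark for low signals, since no background level was used here. Signals of different clusters are not compared as amounts of RNA, because probes differ in their response. Correlations across clusters were 0.932 to 0.967 between control clones, 0.964 to 0.977 between *HIST1H1A* clones and 0.916 to 0.948 between the groups. A row rose or fell when its adjusted p was under 0.05 with limma, adjusted by Benjamini-Hochberg over all 16377 clusters.

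Of the 36 keratin rows, *KRT8* and *KRT18* fell, none rose and 34 did not pass. Over all clusters the same test called 5.79%, with 3.77% higher and 2.02% lower, and over the brightest cluster of each named gene it called 12.5%, with 8.72% higher and 3.83% lower. The 2 keratin calls were thus close to the share of all clusters and below that of named genes, and nothing particular to the keratins is read from their count. With the study's further demand of a fold change over 2, *KRT8* and *KRT18* were still called, against 3.77% of all clusters. At an unadjusted p under 0.05, limma and the methods' t-test, a plain test of each cluster on its own, each counted 4 keratin rows, 2 higher and 2 lower. That is 11.1% of the rows, where limma counted 15.1% of all clusters and 25.9% of named genes. The median log2 difference over the 36 rows was 0.05, and over all clusters it was -0.01.

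*KRT8*, the type II keratin of simple epithelia, had log2 signals of 6.59, 6.45, 5.89 and 6.33 in control clones 3, 4, 8 and 9. In *HIST1H1A* clones 2, 8, 9 and 10 they were 4.65, 4.81, 5.29 and 4.85. All *HIST1H1A* clones lay below all control clones, with a gap of 0.60 between control clone 8 and *HIST1H1A* clone 9. The means were 6.31 ± 0.30 (SD, n = 4) and 4.90 ± 0.28 (SD, n = 4), a log2 difference of -1.41 (standard error 0.19, adjusted p = 0.0031 from limma), or 2.66-fold lower. The 95% interval of the difference ran from -1.85 to -0.97. In RNA from bulk cultures, fewer cells that express a gene and less RNA per cell cannot be told apart.

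*KRT18*, its type I partner, had log2 signals of 7.09, 6.59, 6.09 and 6.20 in control clones 3, 4, 8 and 9. In *HIST1H1A* clones 2, 8, 9 and 10 they were 5.53, 5.01, 5.33 and 5.46. The groups again did not overlap, and control clone 3 was the highest. The means were 6.49 ± 0.45 (SD, n = 4) and 5.33 ± 0.23 (SD, n = 4), a log2 difference of -1.16 (standard error 0.23, adjusted p = 0.020 from limma), or 2.23-fold lower, with a 95% interval from -1.68 to -0.63. The call did not hold when any of 4 arrays was left out, with adjusted p of 0.066 without control clone 4, 0.060 without *HIST1H1A* clone 8, 0.065 without *HIST1H1A* clone 9 and 0.052 without *HIST1H1A* clone 10. The difference itself lay between -1.29 and -0.96 when 1 array was left out. For *KRT8* the call held without each array in turn.

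**Figure D1:**
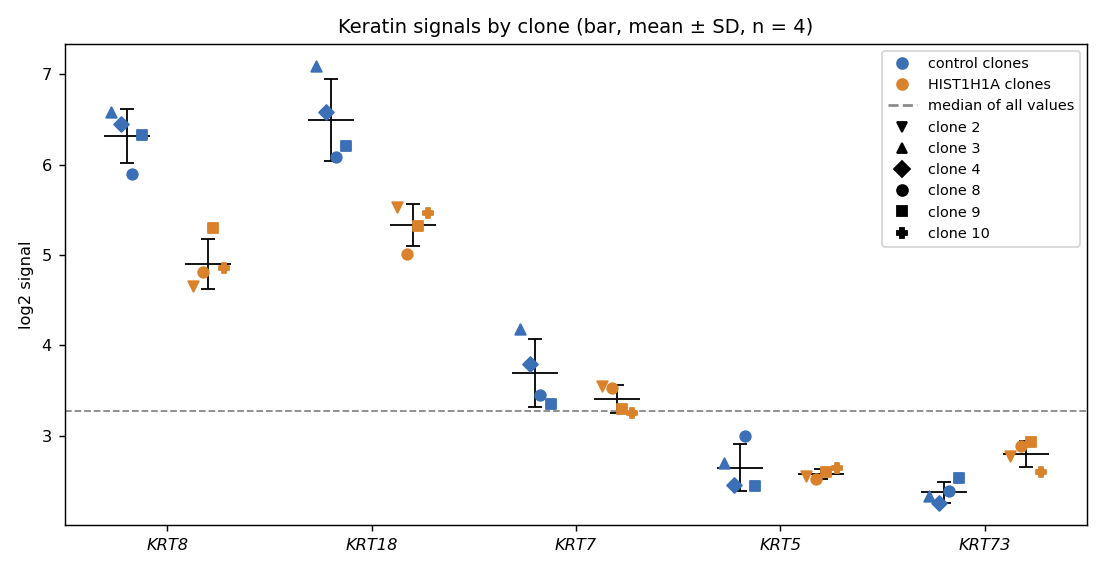
Log2 signals of *KRT8*, *KRT18*, *KRT7*, *KRT5* and *KRT73* on each array, with control clones in blue, *HIST1H1A* clones in orange, a marker shape for each clone number, and bars for the mean and SD of 4 clones; the dashed line is the median of all values, 3.27. *KRT8* and *KRT18* were lower in all 4 *HIST1H1A* clones than in any control clone, while *KRT7* and *KRT5* overlapped and *KRT73* lay below the line in both groups.

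Whether the partners fell by the same amount was tested as the log2 signal of *KRT8* minus that of *KRT18* on each array. It was -0.51, -0.14, -0.19 and 0.13 in control clones 3, 4, 8 and 9 and -0.88, -0.21, -0.03 and -0.61 in *HIST1H1A* clones 2, 8, 9 and 10. The groups overlapped, and the spread between *HIST1H1A* clones (SD 0.38, n = 4) was larger than the difference between the group means of -0.25. An exact two-sided permutation test over all 70 divisions of the arrays gave p = 0.31, where the smallest p the design allows is 0.029. Which clone was highest differed between the partners among *HIST1H1A* clones, where clone 9 had the highest *KRT8* and clone 2 the highest *KRT18* and the lowest *KRT8*. Among control clones, clone 3 was the highest and clone 8 the lowest for both.

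**Figure D2:**
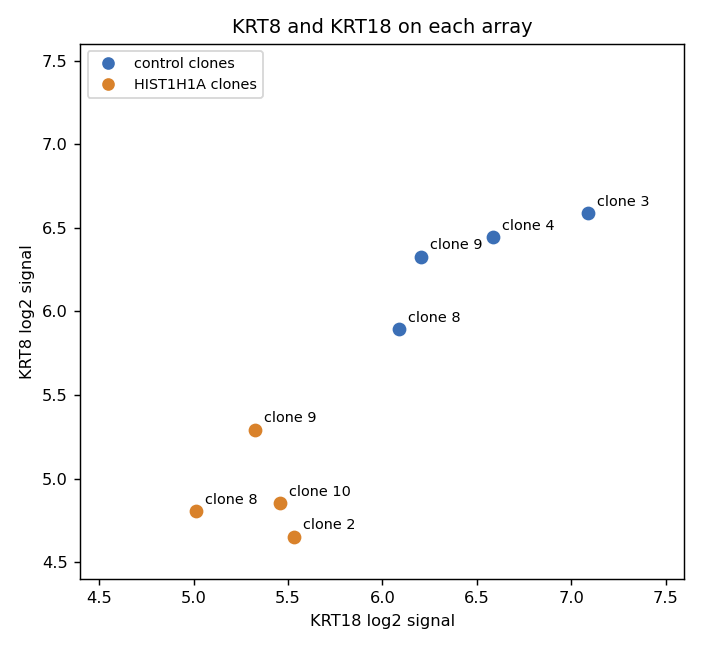
Log2 signal of *KRT8* against that of *KRT18* on each array, 1 point per clone, blue for control and orange for *HIST1H1A*. The control clones lie at the upper right, from 5.89 to 6.59 for *KRT8* and 6.09 to 7.09 for *KRT18*, and the *HIST1H1A* clones at the lower left, with no overlap on either axis.

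The transcript cluster named *KRT8* is annotated by a non-coding RefSeq transcript of this gene, and the RefSeq spans of *KRT8* and *KRT18*, which are read from opposite strands, overlap at the start of *KRT18*. Which exons and which strand each cluster reads was not checked. *KRT8P41*, a transcribed pseudogene of *KRT8* on chromosome 11, had signals of 4.30, 3.93, 3.79 and 3.38 in control clones 3, 4, 8 and 9 and of 3.61, 3.38, 3.73 and 3.78 in *HIST1H1A* clones 2, 8, 9 and 10. Its groups overlapped, with a log2 difference of -0.22 (standard error 0.20, adjusted p = 0.74 from limma) and a 95% interval from -0.67 to 0.23. Whether the changes of *KRT8P41* and *KRT8* differ was not tested. *KRT19P2*, a pseudogene of *KRT19*, differed by 0.11 on the log2 scale (adjusted p = 0.87 from limma).

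The window around a transcription start is shown for *KRT8*, which fell, *KRT73*, which had the largest difference among the rows that did not pass, and *KRT5*, which was low in both groups. The sequences are from RefSeq on GRCh38.p14, 250 bases before to 50 after the start, and 16 of the 36 rows had such a window. Capitals mark any match to 5 motifs, searched on both strands. The first was TATAAA, the box that places the start of many genes. The next was GGGCGG, the site of SP factors. The third was TGANTCA, the site of AP-1. The fourth was CAGGTG, an E-box. The last was CCGGAA, the core of sites for ETS factors. No match overlapped another in these windows. The RefSeq span of *KRT8* begins upstream of the start used here. Which start of *KRT8* these clones use was not checked, so its window need not be the promoter in use.
KRT8, chr12:52926420-52926719, minus strand: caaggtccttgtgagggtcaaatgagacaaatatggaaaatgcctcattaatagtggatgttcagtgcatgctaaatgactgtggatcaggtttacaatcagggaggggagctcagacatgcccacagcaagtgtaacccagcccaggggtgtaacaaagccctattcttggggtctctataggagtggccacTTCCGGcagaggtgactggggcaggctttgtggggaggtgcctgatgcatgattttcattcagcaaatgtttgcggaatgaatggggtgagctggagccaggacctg
KRT73, chr12:52618510-52618809, minus strand: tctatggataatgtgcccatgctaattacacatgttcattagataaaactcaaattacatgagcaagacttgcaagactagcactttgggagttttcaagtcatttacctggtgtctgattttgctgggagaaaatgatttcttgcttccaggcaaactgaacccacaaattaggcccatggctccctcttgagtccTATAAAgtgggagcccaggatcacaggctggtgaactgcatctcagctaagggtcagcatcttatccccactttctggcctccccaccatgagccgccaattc
KRT5, chr12:52520345-52520644, minus strand: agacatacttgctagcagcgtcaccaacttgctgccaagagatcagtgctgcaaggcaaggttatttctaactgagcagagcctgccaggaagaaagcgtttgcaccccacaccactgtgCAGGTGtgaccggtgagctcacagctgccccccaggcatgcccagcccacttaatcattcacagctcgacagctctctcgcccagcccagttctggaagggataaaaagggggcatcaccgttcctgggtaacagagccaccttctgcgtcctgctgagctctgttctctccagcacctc

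The window of *KRT8* held 1 match, to CCGGAA on the other strand, and none to the remaining motifs. CCGGAA was found in 17.2% of all 35116 windows and in 2 of the 17 keratin windows, those of *KRT8* and *KRT74*. *KRT73* held TATAAA, as did 11.5% of all windows and 6 keratin windows, and *KRT5* held CAGGTG, as did 20.6% of all windows and 5 keratin windows. GGGCGG was in 45% of all windows and 2 keratin windows, and TGANTCA in 7.71% and in no keratin window. A match describes the letters and is not a bound site.

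*KRT7*, another type II keratin of simple and glandular epithelia, had log2 signals of 4.19, 3.79, 3.45 and 3.36 in control clones and 3.56, 3.53, 3.30 and 3.25 in *HIST1H1A* clones, in the same clone order. The groups overlapped. The log2 difference was -0.29 (standard error 0.19, adjusted p = 0.62 from limma), with a 95% interval from -0.73 to 0.15. *KRT8* was therefore the only member of the type II simple epithelial pair of *KRT7* and *KRT8* to pass, and whether the changes of *KRT7* and *KRT8* differ was not tested.

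*KRT5*, the type II keratin of basal cells, was below the median of all values on all 8 arrays. Its signals were 2.70, 2.45, 3.00 and 2.44 in control clones and 2.56, 2.52, 2.61 and 2.65 in *HIST1H1A* clones, a log2 difference of -0.07 (standard error 0.14, adjusted p = 0.91 from limma). It was the only measured gene of the 6 listed basal prostate markers. The marker lists, like the other gene lists, were chosen with earlier results of these data known. Of the 8 luminal prostate markers listed, 5 were measured, and all 5 fell, *KRT8* and *KRT18* with the calls given above among them. Their mean log2 signal, with *KRT8* and *KRT18* included, was 7.33 to 7.90 in control clones and 4.58 to 4.64 in *HIST1H1A* clones. *FOLH1* and *EHF* fell most, by 5.98 and 5.26 on the log2 scale. Over the brightest cluster of each named gene, limma called 3.83% lower and 8.72% higher. Of 6 mesenchymal markers, 4 were measured. *VIM* rose by 2.86 and *ZEB1* by 0.89 on the log2 scale, while *TAGLN* differed by 0.01 and *MMP14* by 0.21 and neither passed. The mean signal of these 4 was 3.72 to 3.86 in control clones and 4.72 to 4.86 in *HIST1H1A* clones. No luminal or mesenchymal marker measured had both group means below 3.27. The other 3 luminal markers, *EHF*, *CREB3L4* and *FOLH1*, fell beside *KRT8* and *KRT18*, and 2 of the 4 mesenchymal markers rose. Their part in the keratin result was not tested.

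The largest difference among the 34 rows that did not pass was in *KRT73*, a keratin of the inner root sheath of the hair follicle. Its signals were 2.33, 2.26, 2.39 and 2.53 in control clones and 2.78, 2.88, 2.93 and 2.60 in *HIST1H1A* clones. The groups did not overlap, with a gap of 0.07, but all 8 values lay below the median of all values. The log2 difference was 0.42 (standard error 0.12, adjusted p = 0.091 from limma). With array weights and over named clusters only, adjusted p was 0.045 and 0.046. Altogether the groups did not overlap in 3 of the 36 rows, *KRT8*, *KRT18* and *KRT73*, against 11.1% of all clusters.

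The other 4 measured keratins of the root sheath and companion layer were *KRT71*, *KRT72*, *KRT74* and *KRT75*, and their log2 differences ranged from -0.22 to 0.17. *KRT72*, named as the row with the highest signal of the 5, had a mean of 3.75 with an SD of 0.37 over the control clones and of 3.66 with an SD of 0.18 over the *HIST1H1A* clones (limma, adjusted p = 0.90). Of the 6 type II hair keratins, 3 were measured and none passed. *KRT85*, a keratin of the hair matrix, had signals of 4.92, 4.42, 4.14 and 3.91 in control clones and 4.24, 4.45, 4.68 and 4.31 in *HIST1H1A* clones, a log2 difference of 0.07 (adjusted p = 0.94 from limma). *KRT84* was at 3.75 ± 0.14 (SD, n = 4) and 3.81 ± 0.14 (SD, n = 4), and *KRT83* differed by -0.15 on the log2 scale. Control clone 3 had the highest *KRT85* of all 8 arrays, while the *HIST1H1A* clones lay within the range of the control clones.

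Among 13 type II keratins of epidermis and mucosa, 11 were measured and none passed (0 at an unadjusted p under 0.05 with limma, where the share of all clusters was 15.1%, and 0 with the methods' t-test). They were *KRT1*, *KRT2*, *KRT3*, *KRT4*, *KRT5*, *KRT6C*, *KRT76*, *KRT77*, *KRT78*, *KRT79* and *KRT80*. The log2 differences ran from -0.25 for *KRT6C* to 0.12 for *KRT76*, with a median of 0.03. No row of this group was above 3.27 on all 8 arrays, and 5 were above it on none. *KRT1*, a keratin of the differentiating epidermis and the brightest of the group, had signals of 3.52, 3.20, 3.05 and 3.62 in control clones and 3.33, 3.68, 3.22 and 3.38 in *HIST1H1A* clones. These overlapped throughout (log2 difference 0.06, standard error 0.17, adjusted p = 0.94 from limma).

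**Figure D3:**
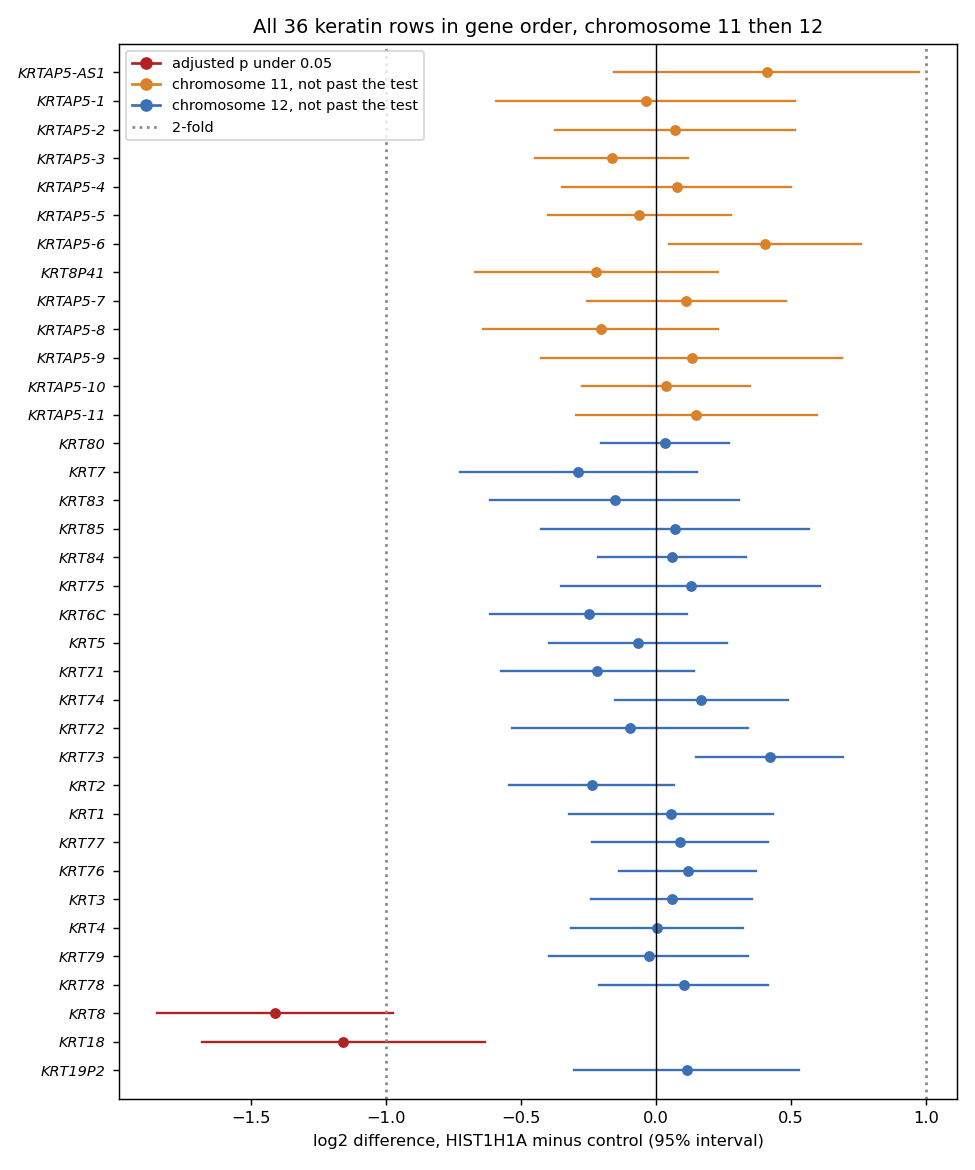
Log2 difference of *HIST1H1A* minus control clones for each of the 36 rows, in gene order along chromosome 11 and then chromosome 12, with 95% intervals; red marks an adjusted p under 0.05, orange and blue the other rows of chromosomes 11 and 12, and dotted lines a 2-fold change. *KRT8* at -1.41 and *KRT18* at -1.16 stand to the left of the line for a 2-fold fall, and the intervals of the other 34 rows all lie between the dotted lines.

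Failing the test does not show that a row stayed the same, so the intervals of the 34 rows are given. All 34 of these 95% intervals, which are not adjusted for the number of rows, lay within a 2-fold change either way, and 22 within 1.5-fold. The lowest bound was -0.73, for *KRT7*, and the highest was 0.98, for *KRTAP5-AS1*. These bounds hold for signals. Of the 36 rows, 15 had both group means below the median of all values. Over all clusters, limma called 0.589% of the 8154 with a mean at or below that median and 10.9% of the 8223 above it. Of the keratin rows, 16 were in the lower set, with no call, and 20 in the upper set, with 2 calls.

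All 11 genes of the KRTAP5 family were measured and none passed with limma or the methods' t-test (1 with either at an unadjusted p under 0.05, which limma gave for 15.1% of all clusters). The family lies in 2 groups on chromosome 11, *KRTAP5-1* to *KRTAP5-6* on the short arm and *KRTAP5-7* to *KRTAP5-11* on the long arm. *KRTAP5-7* had signals of 8.61, 8.60, 8.18 and 7.99 in control clones and 8.36, 8.42, 8.58 and 8.47 in *HIST1H1A* clones. They did not separate the groups (log2 difference 0.11, standard error 0.16, adjusted p = 0.85 from limma). *KRTAP5-1* was at 6.10, 6.08, 6.84 and 6.05 in control clones and 5.88, 5.93, 6.48 and 6.64 in *HIST1H1A* clones, a log2 difference of -0.04 (standard error 0.24, adjusted p = 0.98 from limma). *KRTAP5-6* was the row of the family with the lowest unadjusted p, with a log2 difference of 0.40 (standard error 0.16, adjusted p = 0.24 from limma). Its control clones were at 4.06, 3.94, 4.45 and 4.21 and its *HIST1H1A* clones at 4.47, 4.36, 4.86 and 4.58, so that control clone 8 lay above *HIST1H1A* clone 8. The other 8 genes of the family had log2 differences between -0.21 and 0.15, and 5 of the 11 had both means below 3.27.

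The members of this family are close copies, so probes of a cluster may read several of them, which was not checked. *KRTAP5-AS1*, a non-coding RNA whose RefSeq span overlaps *KRTAP5-1* and *KRTAP5-2*, had signals of 5.25, 4.52, 4.26 and 4.15 in control clones and 4.91, 5.31, 4.84 and 4.76 in *HIST1H1A* clones. The log2 difference was 0.41 (standard error 0.25, adjusted p = 0.55 from limma). Control clone 3 lay among the *HIST1H1A* clones, while the other 3 control clones lay below all of them.

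**Figure D4:**
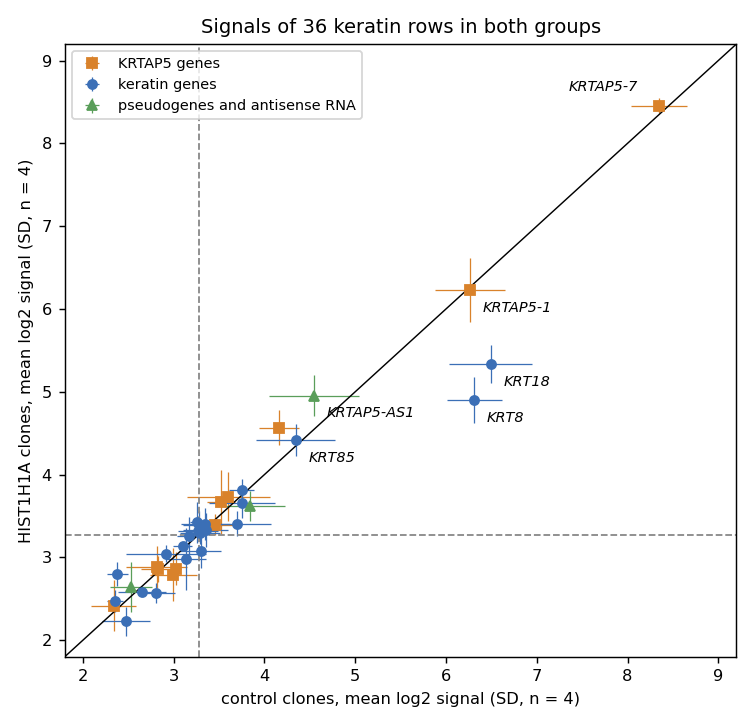
Mean log2 signal of each of the 36 rows in *HIST1H1A* clones against control clones, with SD bars (n = 4), squares for KRTAP5 genes, circles for keratin genes and triangles for pseudogenes and *KRTAP5-AS1*; dashed lines mark the median of all values, 3.27, and the solid line equal signals. *KRT8* and *KRT18* lie below the solid line, *KRTAP5-7* and *KRTAP5-1* lie on it at 8.34 and 6.27 in control clones, and 15 rows lie below both dashed lines.

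The clones of a group also differed in ways the rows shared. Control clone 3 was the highest of the 4 control clones in 16 of the 36 rows (44.4%, against 30.7% of all clusters), and control clone 9 was the lowest in 21 (58.3%, against 31.7%). *KRT8*, *KRT18*, *KRT7*, *KRT85*, *KRT75*, *KRT8P41* and *KRTAP5-AS1* were all highest in control clone 3. Among *HIST1H1A* clones, clone 8 was highest most often, in 13 rows (36.1%, against 30.3%). The mean SD of a row between clones was 0.26 for control and 0.20 for *HIST1H1A*, against 0.34 and 0.26 over all clusters. Leaving out control clone 3 gave differences of -1.32 for *KRT8* and -0.96 for *KRT18*, each still past the test.

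The position of *KRT8* and *KRT18* allowed a look at their surroundings. Along chromosome 12, 15 measured named genes were taken on each side of the row of keratin genes. From *KRT80* to *KRT78* no keratin passed, so that the falls were in the last genes of the row. The nearest measured gene beyond *KRT18*, the translation initiation factor gene *EIF4B*, had a log2 difference of 0.01 (standard error 0.21, adjusted p = 0.99 from limma). On this side 2 of the 15 genes rose, *ESPL1*, the gene of separase, 2.46-fold and *ZNF740* 1.60-fold, and none fell. On the side of *KRT80*, 4 rose and 1 fell. Over the brightest cluster of each named gene, limma called 8.72% higher and 3.83% lower. *TFCP2*, a transcription factor gene, rose 14.3-fold, *SMAGP* 2.36-fold, *POU6F1* 1.95-fold and *GALNT6* 1.68-fold, while *TMT1A* was 3.88-fold lower. The median log2 difference was 0.07 on the side of *KRT18*, 0.02 over the 22 keratin genes and 0.15 on the side of *KRT80*. *SPRYD3*, the fourth measured gene beyond *KRT18*, differed by -0.83 on the log2 scale, short of the threshold (limma, adjusted p = 0.082). *ATG101*, the nearest measured gene beyond *KRT80*, differed by -0.55 with no overlap of the groups, also short of the threshold (limma, adjusted p = 0.052). The 15 genes on each side were taken for their place. Named are the nearest on each side, those past the test and *SPRYD3*, which was named after its value was seen.

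**Figure D5:**
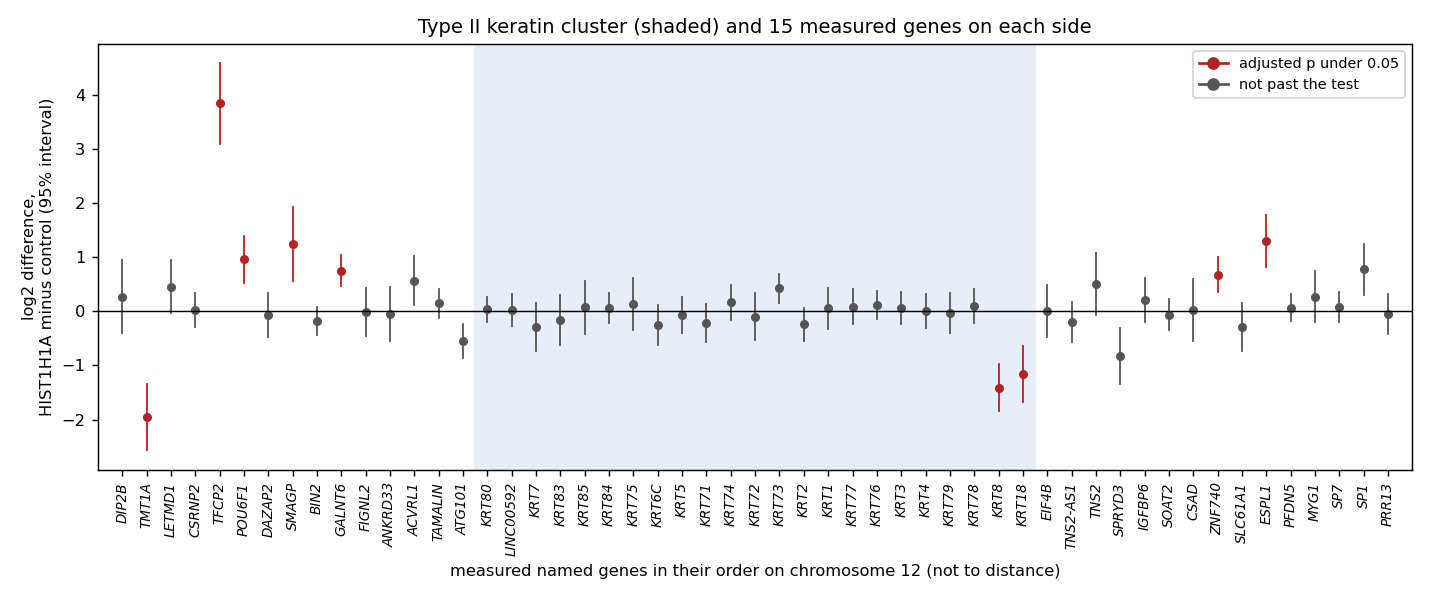
Log2 difference of *HIST1H1A* minus control clones with 95% intervals for the keratin genes of chromosome 12 (shaded, with the non-coding *LINC00592* among them) and 15 measured named genes on each side, in gene order and not to distance; red marks an adjusted p under 0.05. *KRT8* and *KRT18* at the right edge of the shading are the only red points below 0 beside *TMT1A*, and the points next to the shading on either side are not red.

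Genes of other intermediate filaments and of keratin anchors were counted from lists. Of 19 intermediate filament genes outside the keratins, 6 were measured, and 2 rose and 4 did not pass. At an unadjusted p under 0.05, limma counted 4 of the 6. Over named genes, limma called 12.5%, and 25.9% had an unadjusted p under 0.05. *VIM*, which encodes vimentin, had signals of 3.89, 4.51, 4.46 and 4.89 in control clones 3, 4, 8 and 9 and 7.26, 7.37, 7.32 and 7.23 in *HIST1H1A* clones 2, 8, 9 and 10. The groups lay 2.33 apart at their nearest, and the rise was 7.24-fold (adjusted p = 9.8e-05 from limma). *IFFO1*, a gene of an intermediate filament family protein, rose 2.79-fold from 3.07 ± 0.20 (SD, n = 4) to 4.55 ± 0.14 (SD, n = 4). *LMNA*, the gene of lamins A and C, differed by -0.69 on the log2 scale, short of the threshold (limma, adjusted p = 0.11), and *NES*, *PRPH* and *IFFO2* lay between -0.11 and 0.51.

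Of 23 genes of desmosomes and keratin anchoring, the 3 plakophilins on the array table were measured. *PKP3*, a desmosomal plaque gene, fell from 7.51, 6.75, 6.55 and 6.63 in control clones to 5.85, 6.17, 5.64 and 5.73 in *HIST1H1A* clones, a 2.02-fold lower signal with no overlap (adjusted p = 0.036 from limma). *PKP2* had a log2 difference of 0.59 and *PKP1* of -0.08, and neither passed. The methods' t-test with the same adjustment called none of the 3. At an unadjusted p under 0.05, limma counted 2 of the 3, *PKP3* lower and *PKP2* higher. Over named genes, limma called 12.5%, and 25.9% had an unadjusted p under 0.05. Of 28 genes listed for the cornified envelope and hair follicle, 25 were measured and none passed. At an unadjusted p under 0.05, limma counted 0 of the 25, against 25.9% of named genes, and the methods' t-test counted 1. Their log2 differences ran from -0.52 to 0.14 with a median of -0.05, and 15 of the 25 had both means below 3.27. The lowest was that of *HOXC13*, which is also counted among the transcription factors below. Filaggrin (*FLG*), loricrin (*LORICRIN*), involucrin (*IVL*) and trichohyalin (*TCHH*), chosen here as the best known of them, differed by 0.07, -0.002, -0.05 and 0.05.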

How the data were processed

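LNCaP clones of both groups, 4 each, were profiled on Human Gene 2.0 ST arrays, and the authors deposited a log2 signal for each transcript cluster. Partek Genomics Suite is named for the analysis. How signals were summarized and normalized is not given in the sources used here. Values were taken as deposited.

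Of 16377 clusters, 4247 carried 1 gene symbol and 12130 none here. Symbols came from the platform annotation and were matched to RefSeq gene identifiers, with 0 symbols updated. A gene was represented by its brightest cluster. All clusters were fitted with lmFit and eBayes of limma 3.58.1 (R 4.3.3) without covariates, and p-values were adjusted by Benjamini-Hochberg over all clusters. The script was tested on simulated data. There limma recovered 58 of 100 changes of log2 size 1 and 88 of 100 of size 2. It made 11 false calls among 16177 unchanged clusters. What is called the methods' t-test is Student's test from a figure legend of the paper. Its use on the arrays is inferred.

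The keratin rows, gene lists and motifs were chosen with earlier results of these data known, and the motifs after the windows had been read. The named genes were *KRT8*, *KRT18*, *KRT5* and *KRT7*, every keratin past the test, the 10 rows with the highest mean, the brightest of each subgroup, the 3 largest differences that did not pass, and genes of the other lists past the test at a fold over 2. Other genes are named for their place, as neighbours past the test, as list members or where a small count rests on them. Some, such as *SPRYD3*, were named after their values were seen. Alternatives tried were the methods' t-test, robust and trended limma, limma against a fold of 2, array weights, quantile normalization, median centring, only bright clusters, only clusters with a symbol, a block on clone number, and omission of any array. Precision is limited by the number of arrays.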

Additional observations from a re-analysis of the deposited data

Results flagged for a closer look

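In 1 of 40 groups of 4 clones, 1 clone stood apart from the other 3 by Dixon's criterion, where about 2 such groups are given by chance. *KRTAP5-1* was at a log2 signal of 6.84 in control clone 8, and the nearest other control clone was at 6.10.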

How the results depend on the processing

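The 2 keratin rows past the test (*KRT8* and *KRT18*) became 1 with the methods' t-test, 0 when limma tested for a fold beyond 2, and 1 to 2 when 1 array was left out. *KRT8* (-1.41) was called under each of the 15 settings with 7 or 8 arrays whose null was no change, with adjusted p from 0.00082 to 0.022. *KRT18* (-1.16) lost it in 5 of 15, with the methods' t-test (adjusted p = 0.081) and without control clone 4 or *HIST1H1A* clone 8, 9 or 10, with values of -1.29 to -0.96 when 1 array was left out. Against a fold of 2, adjusted p was 1 for both. *KRT73* passed with array weights and over named clusters only. Of the other named keratin rows, none gained a call.

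Over all clusters, 948 calls (617 higher, 331 lower) became 552 with the methods' t-test, 118 against a fold of 2 and 618 with a fold over 2 in addition, and rose to 1296 (735 higher, 561 lower) with array weights. Leaving out 1 array gave 602 to 963, the lowest without *HIST1H1A* clone 9. With the methods' t-test, an unadjusted p under 0.05 and a fold over 2 were met by 768 clusters, 2 of them keratin rows, and 397 after Benjamini-Hochberg adjustment.

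Clone numbers 8 and 9 occur in both groups as numbers only, and the correlation of deviations from group means was 0.07 and -0.22. In these 4 arrays limma called 75 clusters without and 0 with the replicate block, and 0 keratin rows either way. *KRT8* differed by -1.06 (adjusted p = 0.26 without and 0.22 with the block) and *KRT18* by -0.98 (0.19 and 0.25). *KRT8* minus *KRT18* was -0.39 to -0.10 when 1 array was left out (exact permutation p of 0.14 to 0.60). With the replicate block it was -0.09, where 2 pairs allow no exact p below 0.5. The causes of these differences were not tested.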

Other observations

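Of 25 transcription factors known to act on keratin or epithelial genes, 3 of the 10 on the table rose, 1 fell and 6 were not past the test, with 7 at an unadjusted p under 0.05. Over named genes, limma called 12.5%, and 25.9% had an unadjusted p under 0.05. *EHF*, an ETS factor of epithelial cells, was at 9.15, 9.70, 9.09 and 9.88 in control clones 3, 4, 8 and 9 and at 4.31, 3.96, 4.06 and 4.44 in *HIST1H1A* clones 2, 8, 9 and 10, a 38.3-fold lower signal (adjusted p = 7.2e-06 from limma). The groups lay 4.65 apart at their nearest. *JUN*, a subunit of AP-1, was at 7.69, 8.07, 7.03 and 6.75 in control clones and at 9.43, 9.88, 9.46 and 9.69 in *HIST1H1A* clones, a 4.70-fold rise with no overlap (adjusted p = 0.0022 from limma). *KLF5* and *ETS1*, named after their values were seen, each rose 1.60-fold (adjusted p = 0.032 and 0.047 from limma). *SP1* had a log2 difference of 0.77 (adjusted p = 0.077), and *OVOL1* of -0.86 (adjusted p = 0.12), both from limma and not past the test. *ELF5* had a log2 difference of -1.62 (adjusted p = 0.23 from limma) and a signal of 7.13 in control clone 9, where the other control clones were at 3.87 to 4.80.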
